A study of Mus musculus with 12 samples.

Results

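Genes of the T cell receptor (TCR) complex and of its proximal signalling were followed in naive CD8 T cells of the mouse and in 2 sorts of CD8 tumour-infiltrating lymphocytes (TIL). The set was listed by function and holds 35 genes for the CD3 and zeta chains, the coreceptors, the tyrosine kinases, the adaptors, the exchange factors and the receptors that tune the signal. Each gene was read from its brightest probe set, a probe set being the group of short probes that reads 1 transcript on the array. 34 of the 35 members could be read, among 18193 genes in all, and Lck, for which the annotation used lists no probe set of its own, was not analysed here. No filter on low values was applied, so all 34 members entered the tests.

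RNA was compared between 3 groups of arrays from C57bl/c mice 6 to 8 weeks old. Naive CD8 T cells came from the spleen of naive mice (n = 5 arrays). Both other groups came from B16F10-GP tumours, a melanoma line grown under the skin of the right flank, and were sorted between day 17 and day 19 at a tumour area of about 1 cm2. The PD-1+ Tim-3- 2B4- sort, labelled stem-like, is called Tim-3- TIL (n = 3), and the PD-1+ Tim-3+ 2B4+ sort, labelled exhausted, is called Tim-3+ TIL (n = 4). Tumours were digested with collagenase and TIL enriched on Percoll, so tumour origin, digestion and sorting gate separate TIL from naive cells and cannot be told apart. The labels do not say whether the arrays of a group came from separate mice or pools, and the p-values then measure only the spread between these arrays, which may be technical.

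When the TCR binds its peptide ligand, the kinases Lck and Fyn phosphorylate tyrosine motifs on the CD3 and zeta chains, and ZAP-70 docks there. ZAP-70 phosphorylates the adaptors LAT and SLP-76 (the gene Lcp2), which gather phospholipase C gamma, TEC family kinases, VAV proteins and Ras exchange factors. The second messengers calcium and diacylglycerol then carry the signal to NFAT, to Ras and ERK through RasGRP proteins, and to NF-kappaB through PKC theta (the gene Prkcq), BCL10 and MALT1. In T cells that meet antigen without end, as in tumours, this pathway is known to be held back by inhibitory receptors such as PD-1.

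All values are log2 of the deposited linear intensities. A level of log2 5.71, the percentile 40 of all genes, served as a mark of dim signal, and no member had a mean over the 12 arrays below it. The median member stood at percentile 93.0 of all genes by mean intensity. Havcr2, which encodes Tim-3, averaged 4.63 in naive cells, 7.08 in Tim-3- TIL and 11.66 in Tim-3+ TIL, in the order of the sort. The arrays fell into 2 sets along a component holding 35.8% of the variance within groups, and no label names these sets. The sets were drawn from these arrays' own deviations from their group means, so a block for them lowers the remaining spread by construction. Calls gained with that block are therefore no separate support. Set A held 2 naive, 1 Tim-3- and 2 Tim-3+ arrays, set B the others, and set A is therefore thin for the TIL comparison. In the order in which the samples are listed, all arrays of set A come before all arrays of set B. What lies behind the sets was not tested. Markers of other cell types were mostly dim, except those of CD4 and regulatory T cells and, in TIL, of melanoma. Of 11 monocyte and macrophage markers 9 were below the dim level in every group, as were both NK markers measured, and 3 of 4 dendritic cell markers. Of these 11, Cd68 was higher than naive by 1.45 in Tim-3- TIL. In Tim-3+ TIL 2 were higher, Cd68 by 0.63 and Cd14 by 1.09, and 1 was lower. Of 5 B cell markers 2 were called lower than naive in both sorts and none higher. These were Cd79b, by -2.52 in Tim-3- TIL and -3.29 in Tim-3+ TIL, and Cd79a, by -0.96 and -0.87. Of 7 fibroblast and endothelial markers 1 was called lower in Tim-3- TIL and 3 in Tim-3+ TIL, and none higher. Pecam1 was lower by -1.60 and -3.06, and Cdh5 and Kdr in Tim-3+ TIL by -0.465 and -0.37. The part of these genes was not tested. The summed intensity of 8 melanoma markers ran from 451 to 594 in naive cells, 433 to 703 in Tim-3- TIL and 341 to 1280 in Tim-3+ TIL. Of these 8, Tyrp1, Dct, Mlana, Tyr and Slc45a2 were called higher in Tim-3+ TIL than in naive cells, Tyrp1 and Dct also in Tim-3- TIL, and Pmel was lower in both. Tyrp1 averaged 3.11 in naive cells, 6.15 in Tim-3- TIL and 6.77 in Tim-3+ TIL, and Dct was higher than naive by 2.24 in Tim-3- TIL and 2.92 in Tim-3+ TIL. These melanoma genes thus moved with the TIL samples, and their part in the members' changes was not tested. In bulk RNA, fewer cells with a transcript and less of it per cell cannot be told apart.

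Against naive cells, more members fell than rose in both TIL sorts. In Tim-3- TIL 22 of 34 members passed an adjusted p of 0.05, where 34.4% of all genes passed. Of these members 16 were lower (47.1% of the 34, against 18.3% of all genes) and 6 were higher (17.6%, against 16.1%). In Tim-3+ TIL 21 members passed, where 41.5% of all genes did, with 19 lower (55.9%, against 21.4%) and 2 higher (5.88%, against 20.1%). The median change over the members was -0.34 for Tim-3- TIL and -0.41 for Tim-3+ TIL, beside -0.063 and -0.065 over all genes. Both comparisons use the same naive arrays. The arrays did not overlap with naive for 22 members in Tim-3- TIL (64.7%, against 35.1% of all genes) and for 21 in Tim-3+ TIL (61.8%, against 37.3%). Within array set A 14 members passed in Tim-3- TIL, the calls of Cd247, Fyn, Lat, Grb2, Skap1, Bcl10, Cd5 and Cd6 being lost there. At least 2-fold and called were 5 members, all lower, in Tim-3- TIL (5.01% of all genes were lower to that degree and 6.99% higher) and 8, all lower, in Tim-3+ TIL (6.03% and 8.25%). Members were brighter than most genes. Among genes at or above the dim level 47.4% passed in Tim-3- TIL, 22.8% higher and 24.6% lower, and 56.7% in Tim-3+ TIL, 28.9% higher and 27.8% lower.

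Between the TIL sorts fewer members differed. In Tim-3+ TIL 7 of 34 members (20.6%) passed against Tim-3- TIL, where 13.5% of all genes did. 6 were lower (17.6%, against 5.77% of all genes) and 1 was higher (2.94%, against 7.77%), with a median of -0.13 beside 0.011 over all genes. Among genes at or above the dim level 19.2% passed, 11.0% higher and 8.13% lower. 2 members, Rasgrp2 and Trat1, were called and at least 2-fold lower, as were 2.21% of all genes, and none was 2-fold higher, as were 2.05%. The 6 lower members were Rasgrp2, Trat1, Skap1, Sos1, Fyn and Cd2, and the higher one was Tec. The arrays of both sorts did not overlap for 12 members (35.3%), beside 22.7% of all genes. The calls of Rasgrp2 and Trat1 held under every alternative run, whereas those of the other 5 were lost under at least 1 of them. The count of 7 became 3 within array set A, 11 without Tim-3- replicate 1 or with a trended prior, 12 with the array sets as a block and 14 with array weights.

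**Figure D1:**
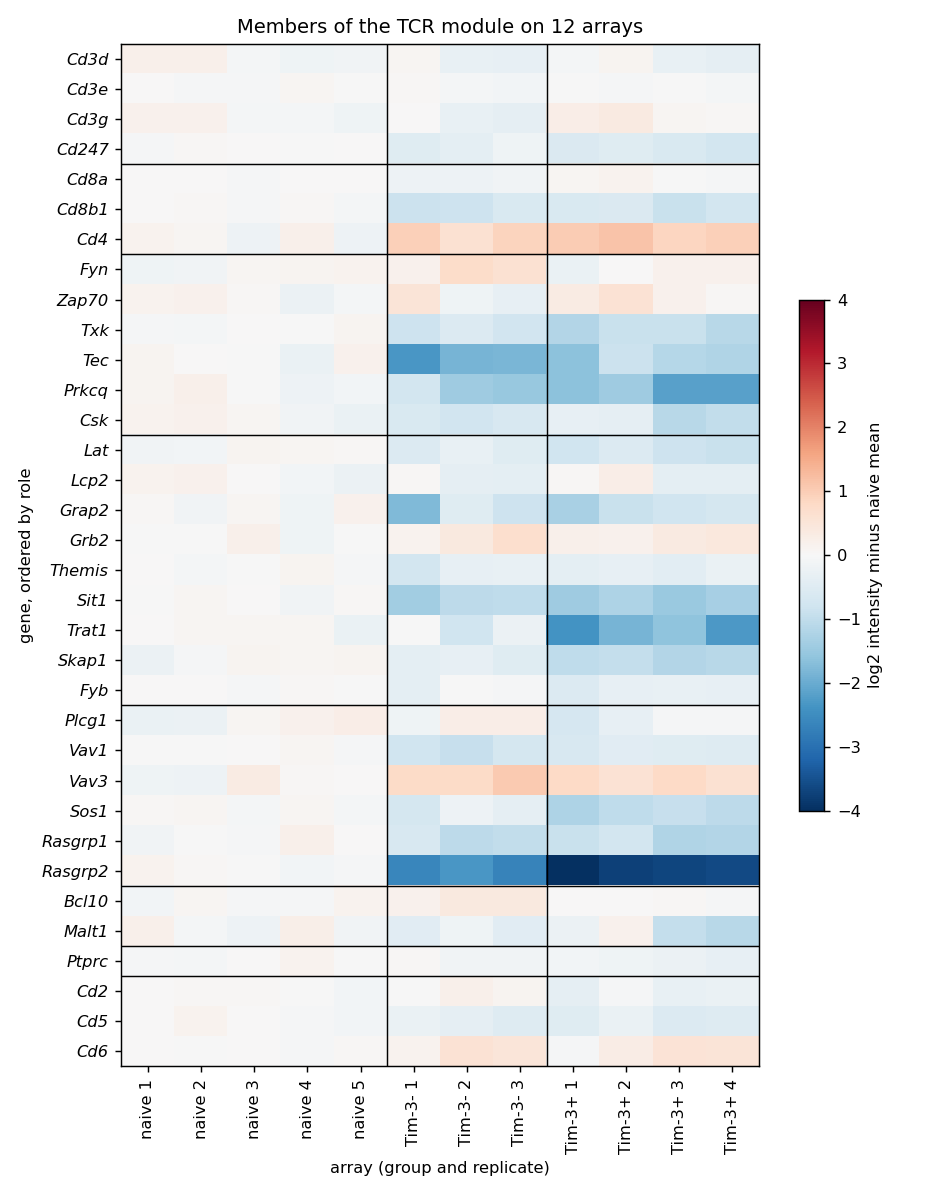
Each row is 1 of the 34 members, grouped by role, and each column 1 of the 12 arrays, with colour showing the log2 intensity minus the mean of the 5 naive arrays on a scale that ends at 4 in either direction. Rasgrp2, Tec, Prkcq and Sit1 are below naive on every TIL array, Vav3 and Cd4 are above it, and Trat1 is lowest on the 4 Tim-3+ arrays.

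The 3 members that moved furthest between the TIL sorts, Rasgrp2 and Trat1 downward and Tec upward, are shown here by the 250 bases before their annotated starts. They were chosen because they were called and were at least 2-fold lower, or were the only member called higher. The letters are those of RefSeq on GRCm38.p6, read 5′ to 3′ along the gene's strand, with Rasgrp2 having a pair of annotated starts, at chr19:6399625-6399874 (+) and chr19:6401455-6401704 (+). Tec is shown at chr5:72868449-72868698 (-) and Trat1 at chr16:48772063-48772312 (-). Capitals mark matches, on either strand, to CTTTGA (TCF and LEF), TGTGGT (RUNX), GGAAGT (ETS) or CACCC (Kruppel-like), letters that belong to factor families expressed in T cells.
Rasgrp2, start 1: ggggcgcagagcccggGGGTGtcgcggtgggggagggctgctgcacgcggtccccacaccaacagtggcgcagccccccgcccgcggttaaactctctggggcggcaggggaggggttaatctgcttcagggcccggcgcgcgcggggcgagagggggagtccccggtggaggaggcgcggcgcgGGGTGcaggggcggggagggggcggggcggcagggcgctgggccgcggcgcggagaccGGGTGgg
Rasgrp2, start 2: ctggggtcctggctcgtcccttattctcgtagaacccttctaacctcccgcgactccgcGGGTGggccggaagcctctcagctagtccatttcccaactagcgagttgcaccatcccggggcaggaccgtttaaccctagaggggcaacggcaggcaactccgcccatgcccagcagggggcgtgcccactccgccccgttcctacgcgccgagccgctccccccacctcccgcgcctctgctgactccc
Tec: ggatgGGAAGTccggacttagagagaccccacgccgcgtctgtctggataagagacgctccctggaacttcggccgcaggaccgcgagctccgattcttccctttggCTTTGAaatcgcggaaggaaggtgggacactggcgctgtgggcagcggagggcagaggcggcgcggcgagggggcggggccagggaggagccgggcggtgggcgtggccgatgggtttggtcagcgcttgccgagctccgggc
Trat1: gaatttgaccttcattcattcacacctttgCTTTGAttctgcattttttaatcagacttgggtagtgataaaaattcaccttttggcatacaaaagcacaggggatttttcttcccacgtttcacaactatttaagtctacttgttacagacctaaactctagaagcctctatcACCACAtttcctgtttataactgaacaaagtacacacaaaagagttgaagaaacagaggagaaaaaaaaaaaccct
Both Rasgrp2 windows held CACCC on the opposite strand, with 3 matches before start 1 and 1 before start 2, and none of the other motifs. Trat1 held CTTTGA with its first base at position -220 from the start and TGTGGT at position -76 on the opposite strand. Tec held GGAAGT at position -245 and CTTTGA at position -143. No motif searched contains another. Of the 34 members 28 had a window of this kind, 38 windows in all, and CTTTGA was in 23.7% of them, beside 13.8% of all 32851 windows of that length. GGAAGT was in 36.8% of member windows (19.7% of all), TGTGGT in 10.5% (14.0%), CACCC in 71.1% (52.0%) and the AP-1 letters TGACTCA in 2.63% (4.46%). These matches are letters in a window, and binding was not measured.

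The invariant CD3 chains differed little between the groups. Cd3e, which encodes the epsilon chain that every TCR complex needs, averaged 12.28 ± 0.054 (SD, n = 5) in naive cells, 12.23 ± 0.089 (n = 3) in Tim-3- TIL and 12.24 ± 0.037 (n = 4) in Tim-3+ TIL. Its largest difference was -0.05 ± 0.08 (SE, adjusted p = 0.694), in Tim-3- TIL against naive. Cd3d, the delta chain, did not pass either, with -0.19 ± 0.15 in Tim-3- TIL and -0.15 ± 0.13 in Tim-3+ TIL against naive. Cd3g, the gamma chain, read 12.33, 12.03 and 11.96 on the Tim-3- arrays and 12.57, 12.68, 12.38 and 12.37 on the Tim-3+ arrays. The arrays of these sorts did not overlap, yet the difference of 0.39 ± 0.13 missed the threshold (adjusted p = 0.0650). It passed in 6 of 12 alternatives other than leaving out 1 array, among them a trended prior, array weights and the replicate number as a block. A block for the array sets, which were drawn from these same arrays' deviations, was another (0.35, adjusted p = 0.00663). Of 12 fits without 1 array, only that without replicate 1 of Tim-3- TIL brought it past the threshold (adjusted p = 0.0264).

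Cd247, the zeta chain that carries most of the complex's tyrosine motifs, fell in both TIL sorts. It read 11.07, 11.18, 11.14, 11.13 and 11.15 in naive cells, 10.64, 10.75 and 10.97 in Tim-3- TIL, and 10.56, 10.65, 10.52 and 10.39 in Tim-3+ TIL. Every TIL array was below every naive array, by -0.35 ± 0.10 in Tim-3- TIL (adjusted p = 0.0130) and by -0.60 ± 0.09 in Tim-3+ TIL (adjusted p = 7.88e-05). The TIL sorts overlapped and did not differ beyond the threshold (adjusted p = 0.133). All 4 Cd247 probe sets were lower than naive in both sorts. The Tim-3- call was lost within either array set, at -0.49 in set A (adjusted p = 0.0552) and -0.28 in set B (adjusted p = 0.0776), and without Tim-3- replicate 1 (adjusted p = 0.0638).

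Of the coreceptors, which bring Lck to the complex, the CD8 chains parted. Cd8b1, the beta chain, read 12.39 to 12.52 in naive cells, 11.62 to 11.84 in Tim-3- TIL and 11.58 to 11.89 in Tim-3+ TIL. It fell by 0.76 ± 0.10 (SE) in Tim-3- TIL (adjusted p = 3.24e-05) and by 0.70 ± 0.09 in Tim-3+ TIL (adjusted p = 2.11e-05), with no overlap with naive. Cd8a, the alpha chain, stayed within a narrow span, at 12.76 to 12.84 in naive cells, 12.61 to 12.66 in Tim-3- TIL and 12.77 to 12.95 in Tim-3+ TIL. Its difference in Tim-3- TIL was -0.18 ± 0.08 (adjusted p = 0.105), and in Tim-3+ TIL 0.03 ± 0.08 (adjusted p = 0.763). The Tim-3- difference passed when the arrays were quantile normalized again, when they were centred on their medians and when the prior followed a trend. Both CD8 chains were read near the top of the table, which ended at log2 14.3. The relation between both chains was not tested as a contrast of its own.

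Cd4, the coreceptor of helper T cells, was dim to moderate and rose in both sorts. It read 6.66, 6.59, 6.29, 6.71 and 6.30 in naive cells, 7.47, 7.13 and 7.41 in Tim-3- TIL, and 7.53, 7.64, 7.37 and 7.46 in Tim-3+ TIL. The increase was 0.83 ± 0.13 in Tim-3- TIL (adjusted p = 0.000148) and 0.99 ± 0.12 in Tim-3+ TIL (adjusted p = 8.53e-06), with every TIL array above naive. The second Cd4 probe set was near or below the dim level, at 5.13, 5.56 and 5.77 in naive, Tim-3- and Tim-3+ cells. In the fit of all probe sets it rose by 0.42 in Tim-3- TIL, without a call (adjusted p = 0.0905), and by 0.64 in Tim-3+ TIL (adjusted p = 0.00687). Beside Cd4, the 5 measured markers of CD4 and regulatory T cells (Cd4 itself, Foxp3, Cd40lg, Zbtb7b and Ikzf4) summed to 626 to 698 in naive cells, 1331 to 1467 in Tim-3- TIL and 1465 to 1926 in Tim-3+ TIL. 4 of the 5 were higher than naive in Tim-3- TIL and 3 in Tim-3+ TIL, while Cd40lg was below the dim level in all groups. Ikzf4 was the brightest of the list, at 8.23 in naive cells, 9.66 in Tim-3- TIL and 10.30 in Tim-3+ TIL. Foxp3 was at 7.09, 7.94 and 6.93. In Tim-3+ TIL Foxp3 and Cd40lg were lower than in Tim-3- TIL and Ikzf4 was higher. Their part in the Cd4 value was not tested.

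**Figure D2:**
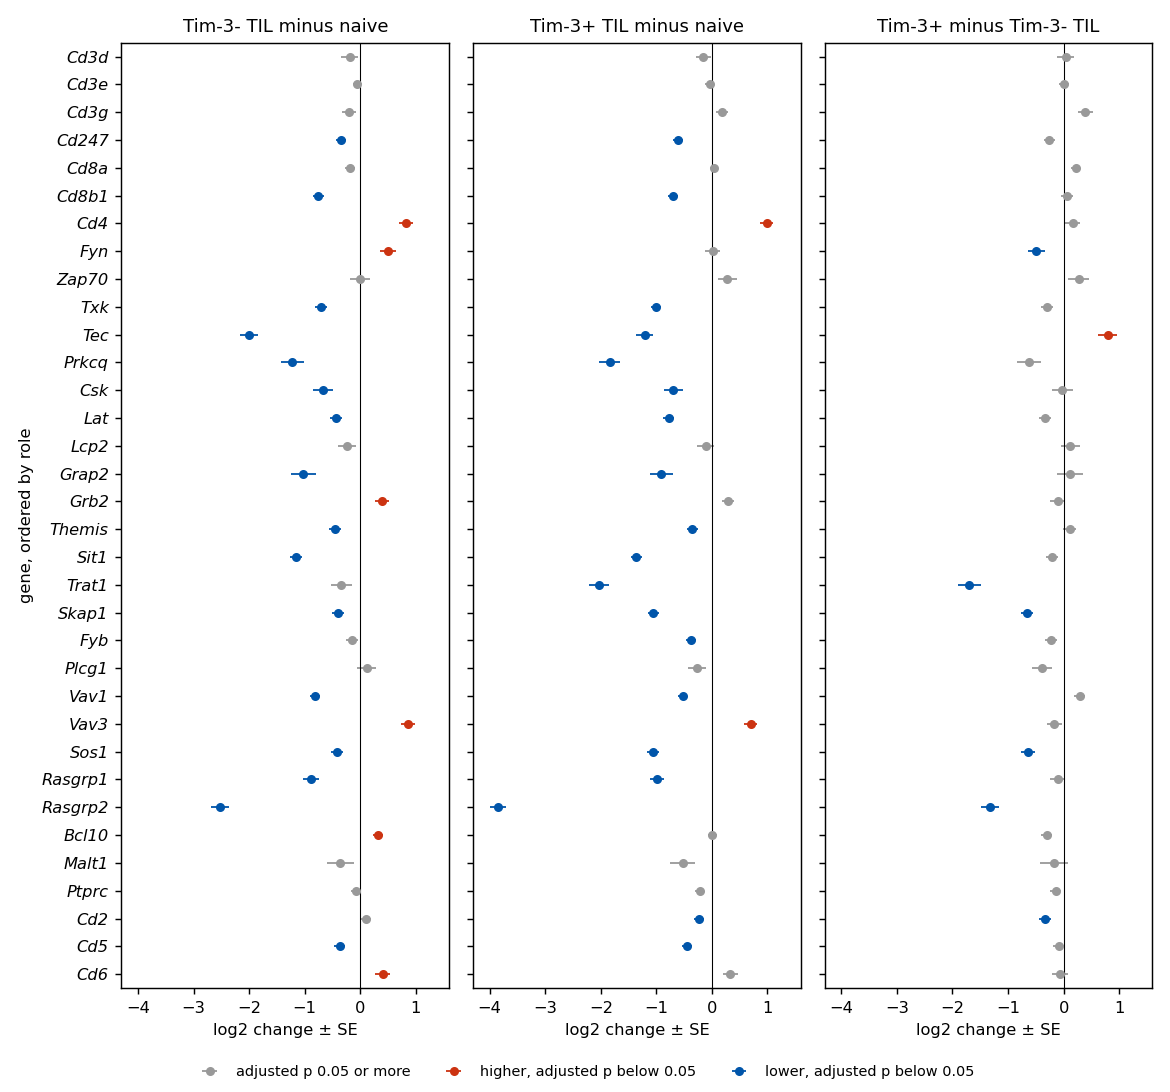
Points show the log2 difference of each of the 34 members in the 3 comparisons, with bars of 1 standard error; at an adjusted p below 0.05 points are red (higher) or blue (lower), otherwise grey. Rasgrp2 lies furthest below 0 in both naive comparisons and Trat1 in the comparison of the TIL sorts, while Cd3e lies near 0 in all 3.

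Among the kinases, TEC family members and PKC theta moved most. Tec, a kinase that phosphorylates phospholipase C gamma, read 9.52, 9.45, 9.40, 9.16 and 9.59 in naive cells, 7.09, 7.57 and 7.60 in Tim-3- TIL, and 7.80, 8.56, 8.27 and 8.23 in Tim-3+ TIL. The 3 groups did not overlap, with Tim-3- TIL lowest. Tec fell by 2.00 ± 0.17 in Tim-3- TIL, 4.00-fold (adjusted p = 4.99e-07), and by 1.21 ± 0.15 in Tim-3+ TIL (adjusted p = 1.85e-05). Tec was the only member whose call between the sorts was upward in Tim-3+ TIL, by 0.79 ± 0.18 (adjusted p = 0.00771). Within array set A that difference was 1.08 with the call lost (adjusted p = 0.0928), and within set B 0.66 (adjusted p = 0.0242). Txk, the other TEC family kinase read, fell by 0.71 ± 0.10 in Tim-3- TIL (adjusted p = 9.45e-05) and by 1.01 ± 0.10 in Tim-3+ TIL (adjusted p = 9.29e-07). Its TIL sorts did not overlap, with Tim-3+ lower by 0.30 ± 0.11, a difference that did not pass (adjusted p = 0.0974).

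Prkcq, PKC theta, links diacylglycerol to NF-kappaB. It read 11.65, 11.76, 11.51, 11.35 and 11.43 in naive cells, 10.81, 10.13 and 10.01 in Tim-3- TIL, and 9.91, 10.13, 9.37 and 9.38 in Tim-3+ TIL. All TIL arrays were below naive, by -1.22 ± 0.20 in Tim-3- TIL (adjusted p = 0.000305) and by -1.84 ± 0.19 in Tim-3+ TIL, 3.59-fold (adjusted p = 1.92e-06). The TIL sorts overlapped and differed by -0.62 ± 0.21 (adjusted p = 0.0754). Within each array set the arrays separated. The difference was -0.79 in set A, which holds 1 Tim-3- array and for which only the size is given. In set B it was -0.70 (adjusted p = 0.00568). The difference also passed when the fit held a block for the sets (-0.71, adjusted p = 0.000877), which were drawn from these same arrays' deviations.

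Fyn, the Src family kinase that acts beside Lck, was highest in Tim-3- TIL. Its levels were 11.10, 11.13, 11.36, 11.38 and 11.41 in naive cells, 11.45, 12.01 and 11.88 in Tim-3- TIL, and 11.00, 11.28, 11.43 and 11.44 in Tim-3+ TIL. The lowest Tim-3- array, in set A, lay only just above the highest arrays of the other groups. Fyn rose by 0.50 ± 0.14 in Tim-3- TIL against naive (adjusted p = 0.0143) and was lower in Tim-3+ than in Tim-3- TIL by -0.49 ± 0.15 (adjusted p = 0.0455). Tim-3+ TIL and naive cells differed by 0.01 ± 0.13 (adjusted p = 0.954). The TIL difference lost its call in 8 of the 12 fits that left out 1 array (adjusted p from 0.0526 to 0.210). The rise over naive lost it when either Tim-3- array of set B was left out (adjusted p from 0.0652 to 0.0874). In the fit of all probe sets the second Fyn probe set was 0.86 over naive in Tim-3- TIL (adjusted p = 0.000962). Between the sorts it gave -0.56 (adjusted p = 0.0486), where the probe set used did not pass in that fit (adjusted p = 0.0587).

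Zap70 and Csk complete the kinases read. Zap70, which docks on the phosphorylated chains, averaged 10.66 ± 0.17 (SD) in naive cells, 10.66 ± 0.46 in Tim-3- TIL and 10.93 ± 0.23 in Tim-3+ TIL, with no call. Its second probe set was higher in Tim-3+ TIL, by 0.51 against Tim-3- TIL (adjusted p = 0.0227) and by 0.55 against naive (adjusted p = 0.00146), in a fit of all probe sets chosen after the data were seen. Csk, which inactivates Src family kinases, fell by 0.67 ± 0.18 in Tim-3- TIL (adjusted p = 0.0101) and by 0.70 ± 0.17 in Tim-3+ TIL (adjusted p = 0.00361). Its Tim-3+ arrays split by array set, at 10.02 and 9.99 in set A and 9.23 and 9.35 in set B.

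Trat1, which encodes TRIM, a transmembrane adaptor tied to the zeta chain, was the member with the largest drop between the TIL sorts. It read 7.76, 7.81, 7.80, 7.83 and 7.48 in naive cells, 7.74, 6.95 and 7.51 in Tim-3- TIL, and 5.35, 5.89, 6.12 and 5.44 in Tim-3+ TIL. Naive and Tim-3- arrays overlapped, and all Tim-3+ arrays lay below both. The difference between the TIL sorts was -1.70 ± 0.20 (adjusted p = 6.81e-05), and against naive -2.04 ± 0.18 (adjusted p = 4.34e-07). Tim-3- TIL did not differ from naive beyond the threshold, at -0.34 ± 0.20 (adjusted p = 0.210). The Tim-3+ mean, 5.70, was under the dim level of 5.71, so the drop ends where signal is dim and its size is uncertain. The second Trat1 probe set gave -2.45 between the sorts and 0.25 in Tim-3- TIL against naive (adjusted p = 0.228).

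Skap1, an adaptor that links the TCR to integrin adhesion, stepped down from group to group. It read 10.81, 11.00, 11.17, 11.12 and 11.17 in naive cells, 10.67, 10.73 and 10.57 in Tim-3- TIL, and 10.04, 10.11, 9.89 and 9.96 in Tim-3+ TIL, with no overlap. The fall was 0.40 ± 0.11 in Tim-3- TIL (adjusted p = 0.00938) and 1.05 ± 0.10 in Tim-3+ TIL (adjusted p = 7.02e-07), and Tim-3+ was below Tim-3- TIL by -0.66 ± 0.11 (adjusted p = 0.00111). The probe sets of Skap1 did not all give this order. The most variable one gave -0.18 between the TIL sorts (adjusted p = 0.647), and the third was 0.14 in Tim-3- TIL against naive (adjusted p = 0.496). Fyb, which binds SKAP1 in the same adhesion module, fell in Tim-3+ TIL by 0.38 ± 0.10 against naive (adjusted p = 0.00572) and did not pass in Tim-3- TIL. Its second probe set was lower in all 3 comparisons, by -0.47 between the sorts (adjusted p = 0.00779).

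The LAT and SLP-76 scaffold was lower in part. Lat fell by 0.44 ± 0.11 in Tim-3- TIL (adjusted p = 0.00621) and by 0.78 ± 0.10 in Tim-3+ TIL (adjusted p = 2.21e-05), and its TIL sorts overlapped, at 11.30 to 11.57 and 10.96 to 11.30. Grap2, the adaptor GADS that joins LAT to SLP-76, fell by 1.03 ± 0.23 in Tim-3- TIL (adjusted p = 0.00279) and by 0.91 ± 0.21 in Tim-3+ TIL (adjusted p = 0.00269). Grap2 scattered widely in Tim-3- TIL, at 7.54, 8.81 and 8.47, the lowest array being the one in set A. Lcp2, SLP-76 itself, did not pass, with -0.23 ± 0.17 and -0.11 ± 0.15 against naive (adjusted p = 0.316 and 0.592). Grb2, which carries SOS to LAT, rose in Tim-3- TIL by 0.40 ± 0.13 (adjusted p = 0.0242) although its arrays overlapped those of naive cells. Leaving out either of the Tim-3- arrays of set B, or naive replicate 4, ended that call (adjusted p from 0.0526 to 0.163). In Tim-3+ TIL Grb2 stood at 0.29 ± 0.12 over naive (adjusted p = 0.0599), where its second probe set rose by 0.84 (adjusted p = 1.45e-05).

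Sit1 and Themis, 2 regulators of the strength of the signal, were lower in both sorts. Sit1, a transmembrane adaptor that damps TCR signalling, averaged 9.71 ± 0.083 (SD) in naive cells, 8.56 ± 0.20 in Tim-3- TIL and 8.35 ± 0.11 in Tim-3+ TIL. It fell by 1.15 ± 0.11 (adjusted p = 1.28e-06) and 1.36 ± 0.10 (adjusted p = 5.01e-08), with no overlap with naive, and the TIL sorts did not differ beyond the threshold (adjusted p = 0.283). Themis, which sets signal strength during thymic selection, fell by 0.46 ± 0.11 (adjusted p = 0.00405) and 0.35 ± 0.10 (adjusted p = 0.0103). The Tim-3+ call of Themis was lost within array set A (-0.33, adjusted p = 0.0687).

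Rasgrp2, a calcium-responsive exchange factor for Rap1 and so for integrin adhesion, had the largest changes of all members against naive cells in both sorts. It read 10.16, 10.08, 10.03, 9.93 and 9.98 in naive cells, 7.44, 7.72 and 7.38 in Tim-3- TIL, and 5.65, 6.31, 6.37 and 6.43 in Tim-3+ TIL. The groups were far apart, and Tim-3+ replicate 1 lay below the other 3 Tim-3+ arrays and below the dim level. Rasgrp2 fell by 2.52 ± 0.16 in Tim-3- TIL, 5.76-fold (adjusted p = 2.74e-08), and fell by 3.85 ± 0.15 in Tim-3+ TIL, 14.4-fold (adjusted p = 6.78e-11). Tim-3+ was below Tim-3- TIL by -1.32 ± 0.17 (adjusted p = 0.000107), at -1.46 within array set A (adjusted p = 0.0326) and -1.15 within set B (adjusted p = 0.00121). All 4 probe sets fell in each comparison, with differences of -1.09 to -1.56 between the sorts, -1.99 to -2.52 in Tim-3- TIL and -3.24 to -3.85 in Tim-3+ TIL. The dimmest of them averaged 5.70 in Tim-3- TIL and 4.61 in Tim-3+ TIL, and the next 6.32 and 4.77. The dim level was 5.71, so the size of their falls is uncertain.

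Rasgrp1, the diacylglycerol-bound exchange factor that activates Ras in T cells, moved less. It averaged 11.76 ± 0.12 (SD) in naive cells, 10.87 ± 0.22 in Tim-3- TIL and 10.76 ± 0.24 in Tim-3+ TIL. Rasgrp1 fell by 0.89 ± 0.14 (adjusted p = 0.000140) and 1.00 ± 0.12 (adjusted p = 1.51e-05) against naive, and the sorts differed by -0.11 ± 0.14 (adjusted p = 0.731). Sos1, the exchange factor that GRB2 carries, read 9.89, 9.93, 9.77, 9.94 and 9.76 in naive cells, 9.17, 9.64 and 9.50 in Tim-3- TIL, and 8.63, 8.84, 8.93 and 8.81 in Tim-3+ TIL. The 3 groups of Sos1 arrays did not overlap and stepped down in the same order as Skap1. Sos1 was lower in Tim-3+ than in Tim-3- TIL by -0.64 ± 0.12 (adjusted p = 0.00291), a call lost within array set A (-0.43, adjusted p = 0.149) and held in set B (-0.70, adjusted p = 0.00787). Against naive it fell by 0.42 ± 0.12 in Tim-3- TIL (adjusted p = 0.0122), which did not pass within set B (-0.25, adjusted p = 0.119) or without Tim-3- replicate 1 (adjusted p = 0.0701). In Tim-3+ TIL the fall was 1.06 ± 0.11 (adjusted p = 1.87e-06). The 5 Sos1 probe sets had negative differences in each comparison but of unequal size, and 1 of them, dimmer than the one used, gave -1.92 in Tim-3- TIL and -2.73 in Tim-3+ TIL.

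The VAV exchange factors, which act on the actin skeleton, moved in opposite directions. Vav1, the main form in T cells, read 9.43, 9.44, 9.46, 9.55 and 9.40 in naive cells, 8.66, 8.52 and 8.75 in Tim-3- TIL, and 8.83, 8.99, 8.99 and 8.93 in Tim-3+ TIL. It fell by 0.81 ± 0.09 in Tim-3- TIL (adjusted p = 7.18e-06) and by 0.52 ± 0.08 in Tim-3+ TIL (adjusted p = 0.000128). The sorts did not overlap, Tim-3+ being higher by 0.29 ± 0.09, which missed the threshold (adjusted p = 0.0590). The dimmer Vav1 probe set, the more variable one, was -0.53 and -0.39 against naive and passed in neither (adjusted p = 0.0853 and 0.146). Vav3 read 8.17, 8.16, 8.69, 8.39 and 8.37 in naive cells, 9.12, 9.12 and 9.42 in Tim-3- TIL, and 9.14, 8.93, 9.16 and 8.98 in Tim-3+ TIL. Every TIL array was above naive, by 0.86 ± 0.13 in Tim-3- TIL (adjusted p = 0.000133) and 0.70 ± 0.12 in Tim-3+ TIL (adjusted p = 0.000287), and all 3 Vav3 probe sets rose in both. Plcg1, the phospholipase that makes both second messengers, did not pass, at 0.12 ± 0.17 and -0.27 ± 0.16 against naive and -0.39 ± 0.18 between the sorts (adjusted p = 0.208). When the fit held a block for the array sets, drawn from these same arrays' deviations, that last difference was -0.32 and passed (adjusted p = 0.0341).

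**Figure D3:**
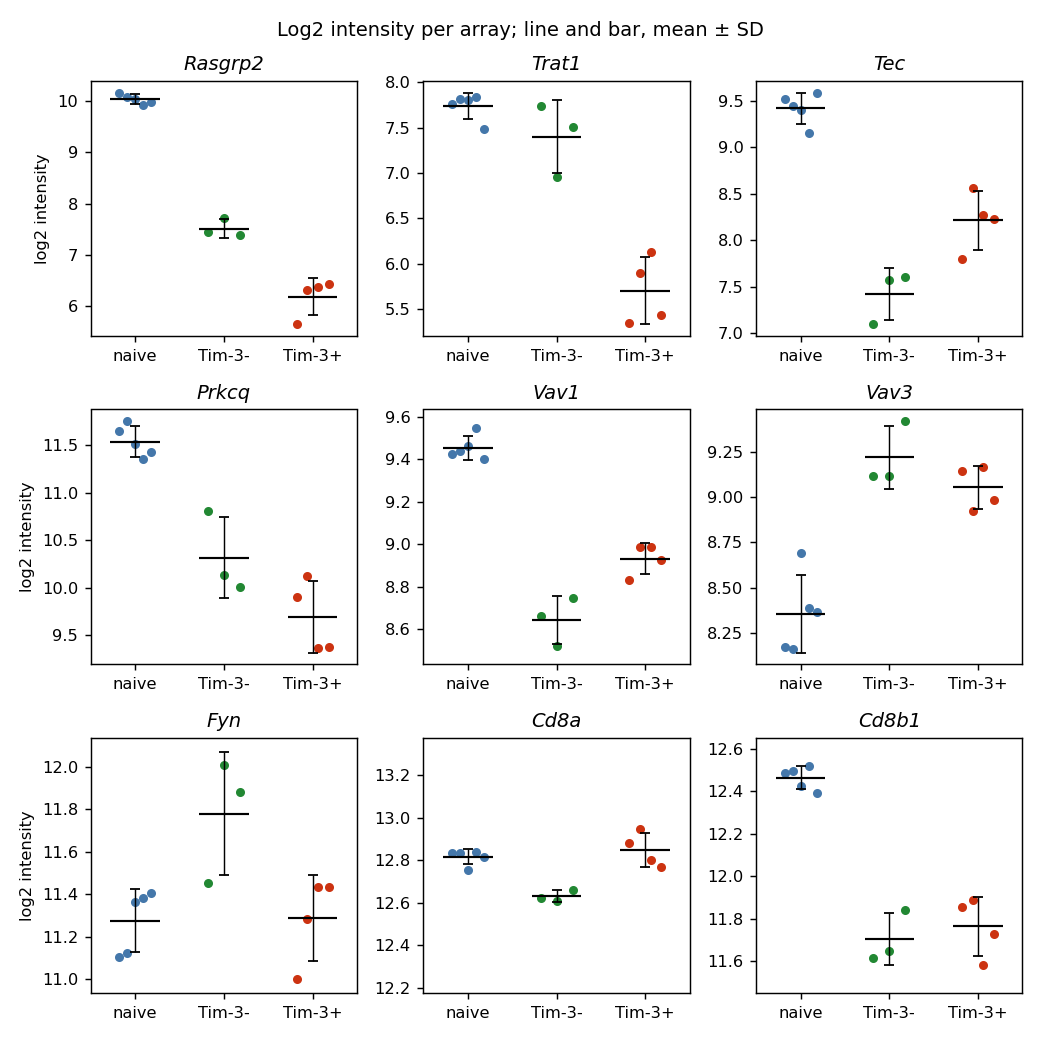
Log2 intensity of 9 members on each array, by group, with a line at each group mean, bars of 1 SD and vertical axes that differ and do not start at 0. Rasgrp2 steps down from naive to Tim-3- to Tim-3+ TIL, Prkcq is below naive on all 7 TIL arrays, Trat1 is low in Tim-3+ TIL alone, Tec is lowest and Fyn highest in Tim-3- TIL, and Vav1 and Vav3 move in opposite directions.

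Of the NF-kappaB adaptors, Bcl10 rose in Tim-3- TIL and Malt1 passed in no comparison. Bcl10 read 10.76 to 10.99 in naive cells, 11.02 to 11.24 in Tim-3- TIL and 10.80 to 10.91 in Tim-3+ TIL. It was 0.32 ± 0.09 above naive in Tim-3- TIL (adjusted p = 0.0180) and 0.01 ± 0.09 in Tim-3+ TIL (adjusted p = 0.947). The sorts did not overlap, with Tim-3+ TIL lower by -0.31 ± 0.10 (adjusted p = 0.0561). That difference passed in 5 of 12 alternatives other than leaving out 1 array, the block for the array sets among them. All 4 Bcl10 probe sets were lower in Tim-3+ than in Tim-3- TIL. Of these, 1 was called in the fit of all probe sets (-0.38, adjusted p = 0.0449). The rise missed the threshold when replicate 2 or 3 of Tim-3- TIL was left out (adjusted p from 0.0804 to 0.0826) and within array set A (0.18, adjusted p = 0.414). Malt1, the protease partner of BCL10, was -0.53 ± 0.22 in Tim-3+ TIL against naive (adjusted p = 0.0703), and its Tim-3+ arrays split by array set, at 9.19 and 9.60 in set A and 8.48 and 8.33 in set B. Within set B Malt1 was lower in Tim-3+ TIL, at -0.99 against naive (adjusted p = 0.00138), while its second probe set was 0.36 against naive in the fit of all probe sets (adjusted p = 0.158).

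On the probe sets used, the phosphatase CD45 and the receptors that tune adhesion and signal strength differed by small amounts. Ptprc, which encodes CD45 and releases Src family kinases from inhibition, averaged 12.51 ± 0.077 (SD), 12.43 ± 0.12 and 12.29 ± 0.091 in naive, Tim-3- and Tim-3+ cells. In Tim-3+ TIL it was -0.22 ± 0.09 from naive (adjusted p = 0.0532), without overlap. That difference passed in 9 of 12 alternatives other than leaving out 1 array, the block for the array sets among them. In the fit of all probe sets the dimmer Ptprc probe set was called lower in every comparison. It gave -0.57 in Tim-3- TIL (adjusted p = 0.0318) and -1.22 in Tim-3+ TIL (adjusted p = 5.71e-05) against naive. Between the sorts it gave -0.66 (adjusted p = 0.0474). Cd5, which restrains TCR signalling and is tuned to its strength, fell by 0.37 ± 0.10 in Tim-3- TIL (adjusted p = 0.0111) and 0.45 ± 0.09 in Tim-3+ TIL (adjusted p = 0.00132). The Tim-3- call of Cd5 was lost without Tim-3- replicate 3 (adjusted p = 0.0692). Cd6, its relative, rose by 0.40 ± 0.14 in Tim-3- TIL (adjusted p = 0.0415), a call lost in 8 of 12 fits without 1 array (adjusted p from 0.0528 to 0.181). In Tim-3+ TIL Cd6 stood at 0.33 ± 0.13 over naive (adjusted p = 0.0546), with arrays that overlapped those of naive cells. It passed in 8 of 12 alternatives other than leaving out 1 array. Both block fits were among these, that with the replicate number only just (adjusted p = 0.0494). It also passed in 2 of 12 fits without 1 array.

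Cd2, the adhesion receptor for CD48 that lowers the threshold for TCR triggering, was lowest in Tim-3+ TIL. It read 12.25, 12.48 and 12.40 in Tim-3- TIL and 11.92, 12.23, 11.99 and 12.01 in Tim-3+ TIL, beside 12.18 to 12.33 in naive cells. Tim-3+ TIL were lower by -0.33 ± 0.10 against Tim-3- TIL (adjusted p = 0.0459) and by -0.24 ± 0.09 against naive (adjusted p = 0.04996). Both calls lie at the threshold. The first was lost in 10 of 12 fits without 1 array (adjusted p from 0.0546 to 0.190) and with the replicate number as a block (-0.32, adjusted p = 0.0647), and the second in 9 of 12 (adjusted p from 0.0554 to 0.134).

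Of the 34 members, 21 had more than 1 probe set. No member had probe sets called in opposite directions in any comparison. Probe sets differed in sign, called or not, for 7 of these 21 members between the TIL sorts, 6 in Tim-3- TIL and 3 in Tim-3+ TIL against naive. Rasgrp2, Cd247 and Sos1 kept 1 sign over all their probe sets against naive, whereas Skap1, Malt1 and Trat1 did not in Tim-3- TIL.

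**Figure D4:**
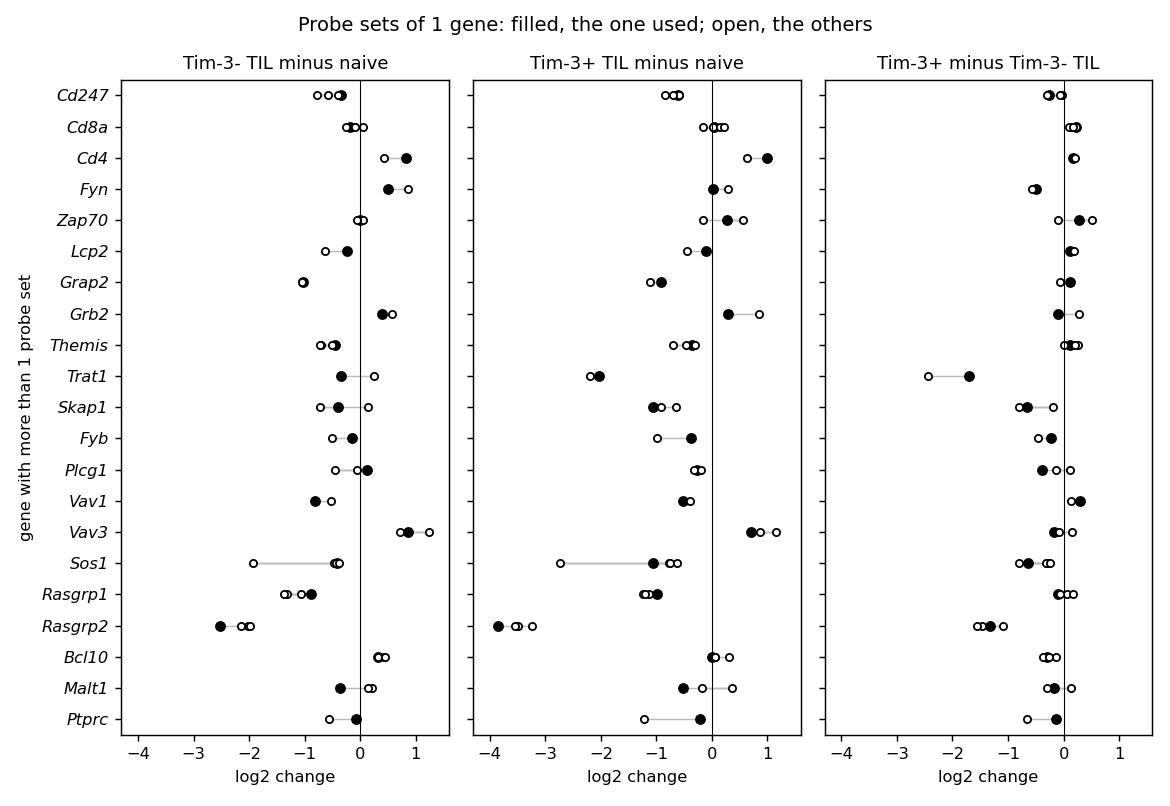
Log2 differences of every probe set of the 21 members with more than 1, in the 3 comparisons, filled for the probe set used, the brightest of its gene, and open for the others. The 4 probe sets of Rasgrp2 lie together below 0 in each comparison, while those of Sos1 spread from small to large falls against naive.

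Other genes of the pathway, 70 listed and 58 measured, moved in both directions. Between the TIL sorts 6 were higher and 8 lower in Tim-3+ TIL, in Tim-3- TIL 16 were higher and 19 lower than naive, and in Tim-3+ TIL 17 were higher and 15 lower. The shares called were 24.1%, 60.3% and 55.2%, beside 13.5%, 34.4% and 41.5% of all genes, and 19.2%, 47.4% and 56.7% of genes at or above the dim level. Their medians were -0.046, -0.022 and 0.029. The 14 genes called between the sorts became 5 within array set A. They became 8 when Tim-3- replicate 2 was left out, and 9 when Tim-3- replicate 3 was. Leaving out replicate 2 of Tim-3+ TIL also gave 9. Of 17 other proximal proteins and brakes, 13 (76.5%) were called in Tim-3- TIL, 9 of them upward, and 13 in Tim-3+ TIL, 10 of them upward. Sh2d2a, the adaptor TSAd that binds Lck, rose by 2.05 ± 0.11 in Tim-3- TIL (adjusted p = 5.22e-09) and by 2.44 ± 0.10 in Tim-3+ TIL (adjusted p = 1.44e-10). Cd28, the costimulatory receptor, rose by 1.15 ± 0.10 in Tim-3- TIL (adjusted p = 6.10e-07), and Ubash3b, a phosphatase that acts on ZAP-70, by 1.53 ± 0.14 in Tim-3+ TIL (adjusted p = 5.94e-07). In naive, Tim-3- and Tim-3+ cells Cd28 averaged 10.28, 11.43 and 11.00, and Ubash3b 9.46, 10.45 and 10.99, so both sorts lay above naive. Sla2, an adaptor that promotes loss of the TCR from the surface, was higher in Tim-3+ TIL than in the other sort by 1.03 ± 0.14 (adjusted p = 0.000194). Nck2, an adaptor to the actin skeleton, was lower in Tim-3+ TIL by -0.74 ± 0.12 (adjusted p = 0.000912).

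Of 11 calcium and calcineurin genes, 8 (72.7%, beside 34.4% of all genes) were called in Tim-3- TIL, 6 of them downward. In Tim-3+ TIL 4 (36.4%) were called, 3 of them downward, a share below the 41.5% of all genes. Among the calcium channels Orai1 rose by 1.39 ± 0.12 in Tim-3- TIL (adjusted p = 4.47e-07), whereas Orai2 fell by 1.47 ± 0.14 (adjusted p = 1.64e-06) and, in Tim-3+ TIL, fell by 1.74 ± 0.13 (adjusted p = 6.71e-08). Orai1 averaged 8.14 in naive cells, 9.53 in Tim-3- TIL and 9.13 in Tim-3+ TIL. Itpr2, a receptor that releases stored calcium, fell by 1.13 ± 0.12 in Tim-3- TIL (adjusted p = 3.42e-06) and fell by 1.83 ± 0.11 in Tim-3+ TIL (adjusted p = 5.01e-09). Stim2, a sensor of stored calcium, was lower in Tim-3+ than in Tim-3- TIL by -1.13 ± 0.15 (adjusted p = 0.000137), and Itpr3 was higher by 0.62 ± 0.15 (adjusted p = 0.0147). Of 7 genes between diacylglycerol, Ras and ERK, Ksr1, a scaffold of the ERK cascade, was lower by -1.31 ± 0.13 between the sorts (adjusted p = 1.21e-05). Dgka, the kinase that consumes diacylglycerol, fell by 2.13 ± 0.18 in Tim-3+ TIL against naive (adjusted p = 3.17e-07). It averaged 12.29 in naive cells, 11.31 in Tim-3- TIL and 10.16 in Tim-3+ TIL. In the PI3K branch Akt1 rose by 0.46 ± 0.11 between the sorts (adjusted p = 0.0121) and by 1.06 ± 0.10 in Tim-3+ TIL over naive (adjusted p = 5.93e-07), while Pik3cd, a catalytic subunit of PI3K, fell by 1.50 ± 0.13 in Tim-3- TIL (adjusted p = 4.86e-07). Pik3cd averaged 10.79 in naive cells, 9.29 in Tim-3- TIL and 9.63 in Tim-3+ TIL. Of 6 genes of the branch to NF-kappaB 2 were higher and 1 lower in Tim-3- TIL against naive, beside 34.4% of all genes called.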

How the data were processed

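RNA of 12 samples (5 naive, 3 Tim-3- TIL, 4 Tim-3+ TIL) was hybridised to Affymetrix mouse arrays, 1 sample an array, as biotin-labelled cRNA, per the labels' protocols. The authors deposited 1 table of linear intensities for 45101 probe sets; RMA (background correction, quantile normalization and summary by probe set) and affy are named per the submitters' processing notes, without versions. Whether all arrays were normalized together, and how the values were returned from log2, is not given in the sources used here. Array medians ran from 58.8 to 63.0. The number of arrays limits the precision.

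Values were taken as log2 of the deposited intensities with no pseudocount. Gene names came from GEO's platform annotation, which can be old: 34945 probe sets named 1 gene, 932 several, and 9160 none, and 64 were controls. A gene took its probe set of highest mean. limma 3.58.1 in R 4.3.3 fitted 3 group means over all 12 arrays, and adjusted p is two-sided, Benjamini-Hochberg over 18193 genes, with a threshold of 0.05; the fit was tested on simulated data. The block fits used the replicate number or the array set, which came from the deviations of these same arrays from their group means. Figures and summaries used Python 3.11.15.

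The members, the pathway list and the marker lists were chosen with earlier results of these data known. All measured members are named, and of the other pathway genes up to 3 a direction with the smallest adjusted p in each comparison. Same-numbered arrays of Tim-3+ TIL and naive cells deviated together (r of deviations from 0.128 to 0.319). They always lay in the same array set, so a pairing, which no label gives, cannot be told apart from the sets. For Tim-3+ with Tim-3- TIL r was 0.413, -0.131 and 0.268, and for Tim-3- TIL with naive 0.225, -0.15 and 0.144. The negative values joined arrays of different sets, the positive ones arrays of the same set. Replicate numbers were not taken as pairs in the main fit.

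Alternatives were other probe set rules, renormalization, centring, a filter on dim genes, a trended prior, array weights, only the compared groups, blocks, each array set, and leaving out each array. The probe set fit of every probe set was added after the data were seen. Markers of CD8 T cells were all above the dim level in each group, with summed intensities of 39191 to 43184 in naive cells, 34944 to 37665 in Tim-3- TIL and 36632 to 41784 in Tim-3+ TIL. B cell markers summed to 559 to 745, 203 to 220 and 171 to 192, and fibroblast and endothelial markers to 960 to 1215, 490 to 511 and 281 to 360.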

Additional observations from a re-analysis of the deposited data

Results flagged for a closer look

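In 68 groups of 4 or 5 arrays, 1 for each member and group of that size, 4 held an array standing apart by Dixon's criterion. That is close to the share that chance gives, about 1 in 20. Rasgrp2 in Tim-3+ replicate 1 was at log2 5.65, with the nearest other Tim-3+ array at 6.31. Fyb in the same array was at 11.48, with the nearest at 11.70. Trat1 in naive replicate 5 was at 7.48, with the nearest naive array at 7.76. Cd8a in naive replicate 3 was at 12.76, with the nearest at 12.82.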

How the results depend on the processing

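Between the TIL sorts the count of 7 members called became 11 with a trended prior, 14 with array weights, 12 with the array sets as a block and 3 within array set A, and 5 to 11 when 1 array was left out (11 without Tim-3- replicate 1). The 14 other pathway genes became 5 within array set A and 8 to 15 with 1 array left out, and the 2463 genes in all became 1590 within array set A and 1666 to 2447 with 1 array left out. In Tim-3- TIL against naive the 22 members became 14 within array set A and 16 to 22 with 1 array left out, and in Tim-3+ TIL the 21 became 20 to 24. Set A has 1 Tim-3- array, assumed to vary like the others. Skap1 changed sign in Tim-3- TIL against naive, to 0.14, with the dimmest of its 3 probe sets. The cause of these shifts was not tested.

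With the replicate number as a block (replicate block), 8 members were called between the sorts, 22 in Tim-3- TIL and 22 in Tim-3+ TIL against naive. Between the sorts Cd3g and Plcg1 gained a call and Cd2 lost it, and in Tim-3+ TIL against naive only Cd6 gained one. Of 816 values a comparison over members and alternatives, 710 between the sorts, 753 in Tim-3- TIL and 743 in Tim-3+ TIL kept their direction and side of the threshold; 66, 40 and 56 crossed it, and 40, 23 and 17, none called before or after, changed sign. Signal near the dim level limits the size of the Trat1 and Rasgrp2 falls in Tim-3+ TIL.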
